A study of Nothobranchius furzeri with 68 samples.

Results

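The 103 genes described here are the F-box (fbxl, fbxo and fbxw), kelch-like (klhl), ankyrin repeat and SOCS box (asb) and tripartite motif (trim) genes of the African turquoise killifish, Nothobranchius furzeri. They were chosen by name alone, as every gene in the liver and muscle count tables whose name starts with one of these stems followed by a digit. They made up 103 of the 25065 genes of the liver table and 103 of the 25099 genes of the muscle table, and comprised 26 fbxo, 12 fbxl, 8 fbxw, 26 klhl, 13 asb and 18 trim genes. A further 38 genes carry only a LOC identifier in the tables while their RefSeq symbol matches the same stems. These 38 are not members and are described as companions.

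The products of these genes choose which proteins the cell marks with ubiquitin for removal or other handling. F-box proteins bring substrates to cullin 1 ligases through SKP1, kelch-like proteins bring them to cullin 3, and ASB proteins bring them to cullin 5. Most TRIM proteins carry a RING domain of their own and act as ligases without a cullin, so most trim members are ligases rather than adaptors. In vertebrate muscle the set is best known for atrogin-1, encoded by fbxo32, which is induced in fasting and wasting muscle, and for kelch proteins that keep the sarcomere intact. In liver, members of the set sense iron and limit growth regulators.

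Livers and skeletal muscles came from the same fish, which were 15 weeks old (old) or 6.5 weeks old (young), male or female, and either heterozygous for an aprt mutation (Het) or wild type (WT). The aprt gene encodes adenine phosphoribosyltransferase, which makes AMP from adenine. Fish were fasted for 24 h or fully fed. The liver table held 41 libraries in 12 groups: fasted old Het, old WT, young Het and young WT fish of each sex, and fed males of the same 4 age and genotype classes. The muscle table held 27 libraries in 8 groups, all from fasted fish, so no comparison with fed muscle exists and fed females were not sampled in either tissue. Each group had 3 or 4 fish, and 8 groups had 4.

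Total counts were 24144462 to 31331150 per muscle library and 19949104 to 31600126 per liver library. Fast muscle fibre markers summed to 149578 to 392097 counts scaled to library size (CPM) in muscle and 25.0 to 355 CPM in liver, and hepatocyte markers to 9.64 to 2451 CPM in muscle and 44581 to 178190 CPM in liver. In liver, ryr1b was the largest part of the fast fibre sum by mean, at 46.0 CPM. The aprt transcript itself ranged from 5.53 to 17.3 CPM in Het livers and from 9.07 to 25.7 CPM in WT livers, and from 3.19 to 10.1 CPM in Het muscles and from 5.03 to 15.4 CPM in WT muscles. These ranges overlap, so the transcript does not separate the genotypes fish by fish.

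Members differed in level between muscle and liver in a share near that of all genes. The largest differences were of genes at high level in muscle and near the detection limit in liver, many of them under the filter on low counts there. Of the 95 members tested in the 27 fasted fish with both tissues, 82 were called at an adjusted p under 0.05 in edgeR's quasi-likelihood test with Benjamini-Hochberg adjustment, 53 higher and 29 lower in muscle. That is 86.3% of the members, against 86% of all 18485 genes tested (42% higher and 44% lower). Of the 95, asb10, asb15, fbxl16, fbxl22, fbxo41, klhl23, klhl34, klhl40 and klhl41 were under the filter on low counts in liver alone and trim46 was under it in muscle alone, so these entered through the tissue where they are high and their direction says nothing further. The 85 members that passed the filter in each tissue are a subset taken after the values were seen. Of them, 44 (51.8%) were higher and 28 (32.9%) lower in muscle, against 42.4% and 43.2% of all 15019 such genes. The median log2 fold change was 0.36, against -0.01. Some of the 85, such as klhl31, asb2 and asb16, were still near the detection limit in the fasted livers. The kit and the sequencer also differed between muscle and liver, and their effects cannot be told apart from those of tissue. In bulk samples such as these, fewer cells of a type and less RNA per cell cannot be told apart either.

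Among members that passed the filter in each tissue, klhl31 and fbxo32, which have known roles in muscle, had the largest differences in favour of muscle. The liver filter took in all 41 livers, fed ones included. In the 27 fasted livers compared here klhl31 was near the detection limit, so passing that filter does not set it apart from the genes left out. The gene klhl31, a kelch-like gene of skeletal and cardiac muscle, ranged over 900, 1561 and 2709 CPM (lowest, median and highest) in muscle, against 0 to 0.501 CPM in liver, where the 27 livers held 68 reads together and 6 livers had none. The sarcomere-associated kelch genes klhl41 and klhl40, whose human counterparts are mutated in nemaline myopathy, were under the filter in liver. Only their levels are given. klhl41 ranged over 9.63, 17.1 and 35.0 CPM in muscle, against 1 read in all 27 livers. klhl40, which stabilises nebulin, ranged over 17.3, 26.7 and 35.2 CPM in muscle, against 16 reads in all 27 livers. Also under that filter were asb10, with 57.8, 76.3 and 107 CPM in muscle and 2 reads in all livers, and klhl23. The latter had 6.60, 10.4 and 14.7 CPM in muscle and 4 reads in all livers.

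A list of known muscle ligase and adaptor genes, chosen for their roles in muscle, had 15 tested members. Of these, 9 passed the filter in each tissue, and 8 of the 9 were higher in muscle, against 42.4% of all such genes. Among the 8, klhl31, asb2 and asb16 held only 68, 50 and 125 reads in the 27 fasted livers together. As for members under the filter, the direction of these genes says nothing further. fbxo32 ranged over 22.6, 327 and 824 CPM in muscle, against 0.616, 1.25 and 2.17 CPM in liver (log2 fold change 7.88 ± 0.36, SE, n = 27 libraries of each tissue, not paired by fish in this fit). The other of those 9, trim32, a ligase whose human gene underlies a limb-girdle muscular dystrophy, ranged over 2.55, 3.51 and 5.34 CPM in muscle and over 1.78, 3.86 and 7.38 CPM in liver (log2 fold change -0.02 ± 0.08, adjusted p = 0.84). trim55, which encodes the titin-binding ligase MuRF2, ranged over 20.4, 32.6 and 77.8 CPM in muscle, against 0.348, 0.836 and 1.22 CPM in liver. fbxl22, an F-box gene of the sarcomeric Z-disc, ranged over 3.20, 9.998 and 16.5 CPM in muscle. It was under the filter in liver, at 0 to 0.431 CPM. Every muscle exceeded every liver for fbxo32 and for trim55. The tissues did not overlap for 26 of the 95 tested members and for 28.5% of all genes. By name family, members that passed the filter in each tissue are set beside all such genes, 42.4% higher and 43.2% lower (median -0.01). Of 10 asb genes 8 were higher in muscle and 1 was lower, with a median log2 fold change of 1.35. Of 21 klhl genes 13 were higher and 6 lower, with a median of 0.66. The higher ones include asb2, asb16 and klhl31, which were near the detection limit in these livers. The trim genes split into 6 higher and 6 lower of 15, with a median of -0.02, and the fbxl genes into 2 higher and 6 lower of 10, with a median of -0.59.

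Liver exceeded muscle most for trim33, which encodes TIF1-gamma, a ligase of Smad4 and a corepressor in TGF-beta signalling. It ranged over 3.56, 6.07 and 7.89 CPM in muscle, against 33.1, 56.9 and 123 CPM in liver (log2 fold change -3.36 ± 0.09), so the lowest liver was above the highest muscle. klhl24, whose human protein controls the turnover of intermediate filaments, ranged over 13.8, 38.0 and 149 CPM in muscle, against 43.0, 213 and 470 CPM in liver (-2.30 ± 0.18). These ranges overlap. fbxl4, a mitochondrial F-box gene that restrains mitophagy, was lower in muscle (-1.75 ± 0.08), as were trim71, the vertebrate LIN-41 homologue and an RNA-binding repressor (-1.78 ± 0.13), and fbxl5, the iron-sensing adaptor that destroys IRP2 (-1.50 ± 0.09). fbxl2, a lipid-anchored F-box gene, was lower in muscle by 0.62 on the log2 scale (adjusted p = 0.00417), but not with the fish as a replicate block (-0.43, adjusted p = 0.0506).

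**Figure D1:**
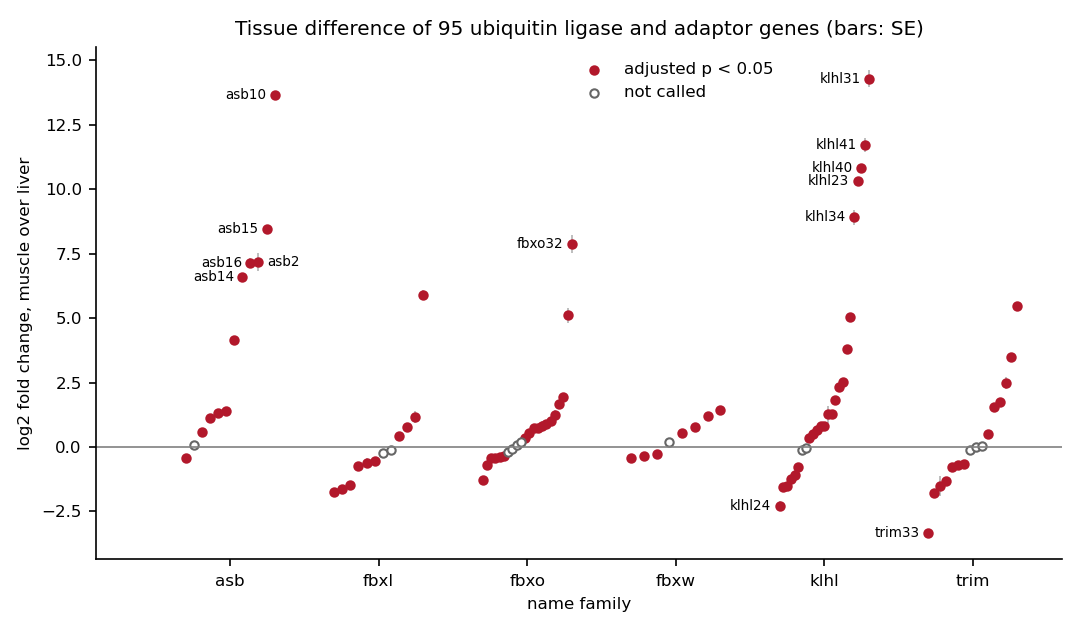
Log2 fold change of muscle over liver for each of the 95 tested members, grouped by name family, in the 27 fasted fish that gave both tissues. Points are genes, bars are standard errors, and filled points passed an adjusted p of 0.05. The highest point is klhl31 at 14.30, a gene near the detection limit in these livers, and the lowest is trim33 at -3.36. The asb genes that passed the filter in each tissue sit mostly above 0, and of these asb2 and asb16 were near the detection limit in these livers. Also plotted are asb10 and the other members under the filter in liver or muscle alone, whose direction says nothing further.

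Muscle fbxo32 had the widest range between fish of the tested members, over all fish and by the median ratio inside groups, and it varied inside groups that share age, sex and genotype. All of these fish were fasted. In old Het females it was 477, 19.3, 563 and 52.0 CPM, in old Het males 469, 658 and 727 CPM, in old WT females 224, 85.0 and 321 CPM, and in old WT males 648, 390 and 97.8 CPM. In young Het females it was 273, 51.3, 104 and 22.6 CPM, in young Het males 693, 151, 404 and 100 CPM, in young WT females 299, 174 and 349 CPM, and in young WT males 30.8, 123 and 279 CPM. The highest fish had 37.7 times the level of the lowest, and the median ratio of highest to lowest inside a group was 6.77. Next by the ratio inside groups were klhl24, with a median ratio inside groups of 2.74 and a range over all fish of 11.7 to 131 CPM, and fbxo48, with a ratio of 2.60 and a range of 1.01 to 12.1 CPM. Over all fish klhl6 came second, with 23.9 times its lowest level, at 0.124 to 2.96 CPM. fbxo48 encodes an F-box protein that in human cells targets phosphorylated AMPK.

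Other members moved with fbxo32 from fish to fish. Over all 27 fish, log2 levels of 41 of 93 other members (44.1%) were related to log2 fbxo32 at an adjusted p under 0.05, against 27.8% of all 16379 genes (two-sided permutation test, 100000 resamples, Benjamini-Hochberg over 16379 relations). With the group means removed and fish permuted only inside their groups, 30 members passed. Of these, 21 were positive (background 12.1% of all genes) and 9 negative (background 9.73%). The 9 negative of 93 are near the share of all genes. The median correlation inside groups was 0.22 over the members and -0.00 over all genes. Genes named here are a selection made after these values had been seen, and others with a correlation of like size are not named.

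The closest was fbxo48, with Pearson's r = 0.92 and Spearman's rho = 0.94 over all fish (permutation, adjusted p = 0.000226 and 0.000169), r = 0.91 inside groups, and r = 0.90 without the 2 fish farthest from the median of fbxo32. fbxl2 had r = 0.88, rho = 0.89 and 0.91 inside groups, and klhl24 had r = 0.88, rho = 0.94 and 0.90 inside groups. Without those 2 fish both had r = 0.86. All 3 have permutation p = 1e-05 over all fish, the smallest that the resamples can give. Next came fbxo34 (0.87 inside groups), klhl21, whose human protein brings Aurora B to the midzone of dividing cells (0.86), and klhl22, which in human cells removes DEPDC5 and so activates mTORC1 (0.84). The positive set also held trim23 (0.80), trim55 (0.77) and fbxo25, the closest paralogue of fbxo32 (0.66). On the negative side were klhl2, which binds actin and turns over WNK kinases (-0.75), fbxo10 (-0.69), klhl31 (-0.66), fbxl22 (-0.65) and trim33 (-0.58).

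Some companion genes were related to fbxo32 as well. Of 10 tested regulators of the atrophy and fasting programme, 4 passed inside groups and all 4 were positive: foxo4 (r = 0.86), foxo1 (0.77), klf9 (0.65) and foxo3 (0.59), transcription factors of fasting and of glucocorticoid and insulin signalling. The identifier with RefSeq symbol trim63b, a copy of the gene for the sarcomeric ligase MuRF1, ranged over 131, 301 and 1230 CPM in muscle and had r = 0.87 inside groups. Of 34 tested companions with a matching RefSeq symbol, 8 were positive and 3 negative, and of 21 cullin, RING and E2 genes, 6 were positive and 1 negative. Of all genes, 12.1% were positive and 9.73% negative inside groups, so the 3 negative of 34 are near the share of all genes.

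**Figure D2:**
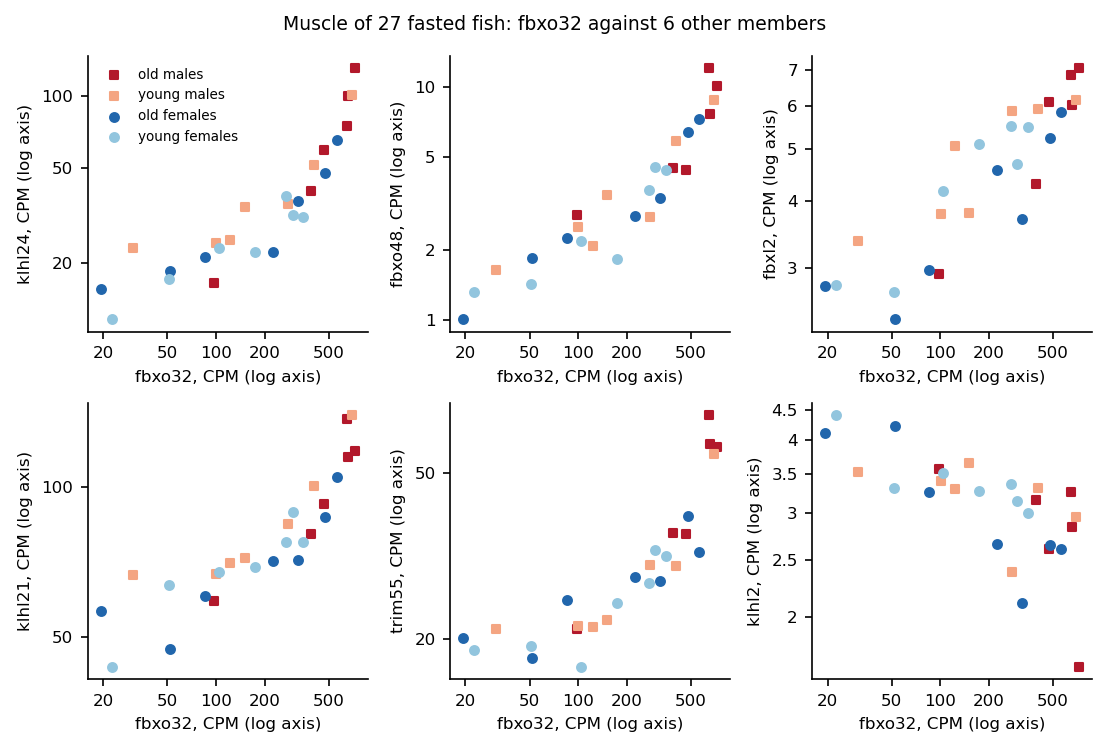
Muscle CPM of klhl24, fbxo48, fbxl2, klhl21, trim55 and klhl2 against fbxo32 in 27 fasted fish, on log axes, with colour and shape for age and sex. Each point is a fish; the first 5 genes climb with fbxo32 over its range of 19.3 to 727 CPM and klhl2 falls, in old and young fish of both sexes.

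Several properties of the muscle samples moved with fbxo32 as well, and their part in these relations was not tested. Across the 27 fish, 13 measures of the libraries were compared with fbxo32 (two-sided permutation tests, Benjamini-Hochberg over 13). The summed level of 3 adipose markers, of which lpl (mean 110 CPM) was the larger part, fabp4a held 24.0 CPM and cidec 0.101 CPM, ran from 62.5 to 267 CPM and had r = 0.70 and rho = 0.74 (adjusted p = 0.00026 and 0.00013), r = 0.76 inside groups and r = 0.62 without the 2 farthest fish. Fibroblast and matrix markers ran from 630 to 4702 CPM and went the other way (r = -0.52, rho = -0.59, adjusted p = 0.0152 and 0.00432, r = -0.67 inside groups, r = -0.61 without the 2 farthest fish), as did the sum of 6 neural markers, which was almost wholly the myelin gene mpz at a mean of 173 CPM with the others at 0.0294 to 0.45 CPM (r = -0.57, rho = -0.66, adjusted p = 0.0107 and 0.00149, r = -0.55 inside groups, r = -0.56 without those fish). Hepatocyte markers had r = 0.52 and rho = 0.65 over all fish (adjusted p = 0.0152 and 0.00195, r = 0.49 without those fish) but r = 0.36 inside groups (adjusted p = 0.0672). Fast fibre markers passed inside groups alone (r = -0.54, adjusted p = 0.0444), and the total count had r = -0.01 (adjusted p = 0.968). The TMM size factor, which scales every CPM of a library and ran from 0.775 to 1.38, had r = 0.42 and rho = 0.46 (adjusted p = 0.0735 and 0.0413), r = 0.57 inside groups (adjusted p = 0.0379) and r = 0.39 without the 2 farthest fish.

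Between old and young males, 7 of 94 tested members differed in muscle, 4 higher and 3 lower in old fish, which is 7.45% of members against 10.1% of all 16380 genes (5.9% higher and 4.24% lower). The median log2 fold change was 0.02 over the members and 0.03 over all genes. asb8, an ASB gene with a cullin 5 box, was 6.67, 8.17 and 8.88 CPM (lowest, median and highest) in 6 old males, against 8.66, 13.3 and 14.3 CPM in 7 young males (log2 fold change -0.63 ± 0.14, edgeR adjusted p = 0.00807). The ranges overlapped only between 8.66 and 8.88 CPM. klhl31 was 927, 1085 and 1589 CPM in old males, against 1365, 1528 and 2299 CPM in young males (-0.51 ± 0.16, adjusted p = 0.0431). fbxo9, whose human protein limits mTOR complexes through TELO2 and TTI1, was 76.5, 99.6 and 112 CPM in old males, against 107, 125 and 144 CPM in young males (-0.34 ± 0.09, adjusted p = 0.0189).

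Among the genes that were higher in old males, asb4 was 2.96, 3.43 and 4.55 CPM, against 2.34, 2.66 and 2.79 CPM in young males, with no overlap (0.48 ± 0.12, adjusted p = 0.0154). Old and young males did not overlap for 1.46% of all genes. fbxw12 was 3.23, 4.42 and 6.997 CPM in old males, against 1.60, 2.38 and 4.10 CPM in young males (0.94 ± 0.26, adjusted p = 0.0231), and klhl15, which targets a regulatory subunit of the phosphatase PP2A, was higher by 0.69 ± 0.22 (adjusted p = 0.0458). klhl6, a kelch gene of B cells and the germinal centre, was named after its values were seen, because its level is under the minimum for named genes. It was 1.40, 2.04 and 0.300 CPM in the old WT males and 0.484, 2.96 and 0.431 CPM in the old Het males, against 0.230, 0.392 and 0.689 CPM (lowest, median and highest) in 7 young males (1.60 ± 0.45, adjusted p = 0.0253). The 3 old males with the most klhl6 were those with the most leukocyte marker RNA, 174.7, 130.4 and 256.0 CPM, against 28.9 to 37.9 CPM in the other old males and 23.3 to 45.0 CPM in young males. Leukocyte markers were higher in old males for 8 of 12 genes (median log2 fold change 1.40), hepatocyte markers for 5 of 12, and fast fibre markers were lower for 6 of 13 and fibroblast markers for 6 of 7. Of all genes, 5.9% were called higher and 4.24% lower in old males. The part of these cell markers in the member results was not tested.

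Several of the calls in males depended on single fish. asb8 was called in all 13 fits that leave out 1 fish, but not when only the groups compared entered the fit (edgeR adjusted p = 0.0554). klhl6 missed the threshold without old WT male 18 or 19, old Het male 26 or young WT male 31 or 32, and without old Het male 26, the fish with the most klhl6, its log2 fold change was 0.86 (adjusted p = 0.19). fbxo9 was lost without young WT male 32 (adjusted p = 0.0522), asb4 without old WT male 18 (adjusted p = 0.0581), and fbxw12 without any of 4 fish (adjusted p up to 0.0869). klhl15 was lost in 10 of the 13 fits and klhl31 in 9. The count of members called was 2 without old WT male 18 or young WT male 32, 3 without young WT male 31, 4 without old Het male 26 or 27, 14 without young Het male 38 and 23 without old WT male 20, and 1 when only the groups compared entered the fit.

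In females 1 member passed, 1.06% of members against 0.311% of all genes, and it was fbxo9, which had also passed in males. It was 89.1, 88.3, 90.8 and 72.5 CPM in old Het females and 92.3, 111 and 92.2 CPM in old WT females, against 134, 132, 128 and 133 CPM in young Het females and 132, 119 and 116 CPM in young WT females (-0.47 ± 0.08, adjusted p = 0.00864, n = 7 each). Every old female was below every young female, and 0.586% of all genes had no overlap here. The call was lost without old WT female 15 (adjusted p = 0.0504) or 17 (adjusted p = 0.0568). No member passed the test of the difference between the age effects of males and females: 8 of 94 had an unadjusted p under 0.05, none an adjusted one in edgeR or DESeq2, and no gene of the whole table did either (0%). fbxo32 itself was higher in old males by 1.13 ± 0.68 (adjusted p = 0.28) and in old females by 0.46 ± 0.65 (adjusted p = 0.86), and neither difference was detectable beyond its spread between fish.

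**Figure D3:**
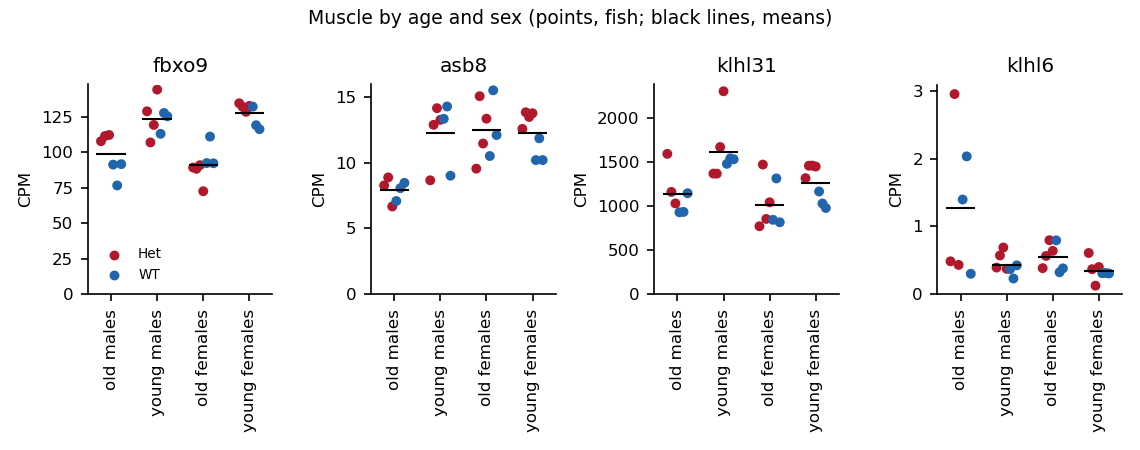
Muscle CPM of fbxo9, asb8, klhl31 and klhl6 in old males, young males, old females and young females; points are fish, red for Het and blue for WT, and black lines are means. fbxo9 is below its young level in both sexes, at 72.5 to 111 CPM in old females against 116 to 134 CPM in young females, while klhl6 is high in 3 old males.

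Between the sexes, 2 of 94 members differed in muscle, 2.13% against 3.2% of all genes. trim37, a ligase whose human gene is mutated in mulibrey nanism, was 3.22, 4.19 and 5.43 CPM in 14 females, against 2.04, 2.89 and 3.80 CPM in 13 males (log2 fold change 0.49 ± 0.09, edgeR adjusted p = 0.00458), and it passed in every fit that leaves out 1 fish. fbxo25 was 2.07, 3.67 and 8.24 CPM in females, against 2.73, 7.26 and 12.1 CPM in males (-0.71 ± 0.19, adjusted p = 0.044), and it was lost in 19 of 27 such fits. The count was 6 without old WT male 20 and 4 without old Het female 23. Between genotypes, 1 of 94 members differed, 1.06% against 0.0794% of all genes (0.0427% higher and 0.0366% lower). It was asb15, an ASB gene of skeletal muscle, at 14.5, 21.1 and 26.3 CPM in 15 Het muscles, against 11.1, 14.6 and 20.7 CPM in 12 WT muscles (0.49 ± 0.09, adjusted p = 0.0227). The ranges overlap. It missed the threshold in 10 of 27 fits with 1 fish left out (adjusted p up to 0.0801).

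Fasting for 24 h went with more member calls than any other comparison made inside a tissue. Over all males, 50 of 87 tested members differed between 13 fasted and 14 fed livers, which is 57.5% against 47.6% of all 17406 genes. Of these, 34 were higher in fasted livers (24% of all genes were) and 16 lower (23.6% of all genes were). The median log2 fold change was 0.05 over the members and 0.02 over all genes. By family, 10 klhl genes were higher and 1 lower of 21 (median 0.26), 10 fbxo genes higher and 4 lower of 22 (median 0.04), and 2 asb genes higher and 3 lower of 10 (median -0.31). Fasted and fed livers did not overlap for 1 member, fbxw7, against 1.81% of all genes.

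F-box genes were among the largest rises. fbxl2 was 2.34, 9.87 and 27.5 CPM in fasted livers, against 0.0765, 2.89 and 7.39 CPM in fed livers (log2 fold change 2.83 ± 0.35, edgeR adjusted p = 8.46e-08). fbxo25 was 3.21, 9.19 and 15.3 CPM in fasted livers, against 0.485, 2.79 and 7.94 CPM in fed livers (1.74 ± 0.17), and its paralogue fbxo32 was 1.10, 1.71 and 2.55 CPM in fasted livers, against 0, 0.711 and 2.24 CPM in fed livers (1.77 ± 0.23). For both genes fasted livers were above most fed livers, and the fed livers ran from low values into the fasted range. fbxw7, the adaptor for cyclin E and MYC, was 13.1, 17.7 and 23.8 CPM in fasted livers, against 4.44, 10.4 and 12.6 CPM in fed livers (0.97 ± 0.14), so the lowest fasted liver was above the highest fed one.

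Higher kelch-like genes in fasted livers included klhl17, which encodes the actin-binding protein actinfilin (1.74 ± 0.22), klhl24 (1.08 ± 0.27) and klhl22 (1.02 ± 0.16). Among trim genes, trim71 was 9.37, 24.0 and 29.4 CPM in fasted livers, against 3.45, 8.26 and 16.7 CPM in fed livers (1.46 ± 0.19), and trim55 (1.30 ± 0.18) and trim33 (0.78 ± 0.11) also rose. fbxl4 (0.90 ± 0.10) and fbxo3, which targets FBXL2 in human cells (0.90 ± 0.12), rose as well. Of 6 members on the list of iron, sterol and stress sensing genes 5 were higher, among them fbxl5 (0.58 ± 0.13), against 24% of all genes. The median over the 6 was 0.77. The other, fbxo21, was not called over all males and was lower in old Het males (-0.68, edgeR adjusted p = 0.0172).

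Falls were fewer. asb4 was 0.398, 1.71 and 4.75 CPM in fasted livers, against 2.07, 4.16 and 6.07 CPM in fed livers (-1.26 ± 0.28, edgeR adjusted p = 0.000335). asb13 fell by 0.84 ± 0.22, trim13, a ligase of the endoplasmic reticulum, by 0.67 ± 0.23, fbxo18, the DNA helicase FBH1, by 0.66 ± 0.13, fbxl15 by 0.65 ± 0.12 and trim32 by 0.63 ± 0.13. fbxo5, which encodes the cell cycle regulator EMI1, was 0, 0.0567 and 0.585 CPM in fasted livers, against 0.0364, 0.255 and 3.16 CPM in fed livers (-2.75 ± 0.54). These levels were a handful of reads per library in most fish. Each gene named as called in this comparison kept its call in all 27 fits that leave out 1 liver.

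The 4 groups of males were also compared one by one. In young WT males 18 members differed (20.7% against 10.7% of all genes), 16 of them higher in fasted livers. In young Het males 14 differed (16.1% against 13.5%), 9 of them higher and 5 lower (6.39% and 7.12% of all genes). In old WT males 32 differed (36.8% against 28.9%), 20 of them higher, and in old Het males 28 (32.2% against 31.8%), 16 of them higher. trim71, trim55 and klhl17 passed as higher in all 4 groups, at 1.49, 1.40, 1.98 and 0.96 for trim71 in young WT, young Het, old WT and old Het males. fbxl2 was higher by 3.57 ± 0.75 in young WT, 4.57 ± 0.83 in old WT and 2.43 ± 0.64 in old Het males. In young Het males the largest falls, among called members with an average log2 CPM of at least 0, were of fbxw12 (-0.95 ± 0.30), fbxl6 (-0.87 ± 0.29) and trim65, which in human cells ubiquitinates the RNA sensor MDA5 (-0.77 ± 0.20).

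Single livers decided several of these calls. With 1 liver left out, trim71 missed the threshold in 6 of 7 fits in old Het males and 3 of 6 in young WT males. trim55 did so in 3 of 7 fits in old Het, 1 of 6 in old WT and 4 of 6 in young WT males, and klhl17 in 3 of 6 in old WT and 4 of 8 in young Het males. fbxl2 kept its call in every such fit of the 3 groups. In young Het males trim65 kept its call, while fbxl6 missed in 6 of 8 fits and fbxw12 in 5. The count of members was 9 in young WT males without fed male 47 and 10 without fasted male 32. In young Het males it was 6 without fed male 54 or fasted male 39, 7 without fed male 52, and 8 without fed male 55 or fasted male 38 or 40. In old WT males it was 20 without fasted male 20. With only the groups compared in the fit, it was 4 in old WT males. There trim55 (edgeR adjusted p = 0.0789) and klhl17 (adjusted p = 0.145) missed the threshold.

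**Figure D4:**
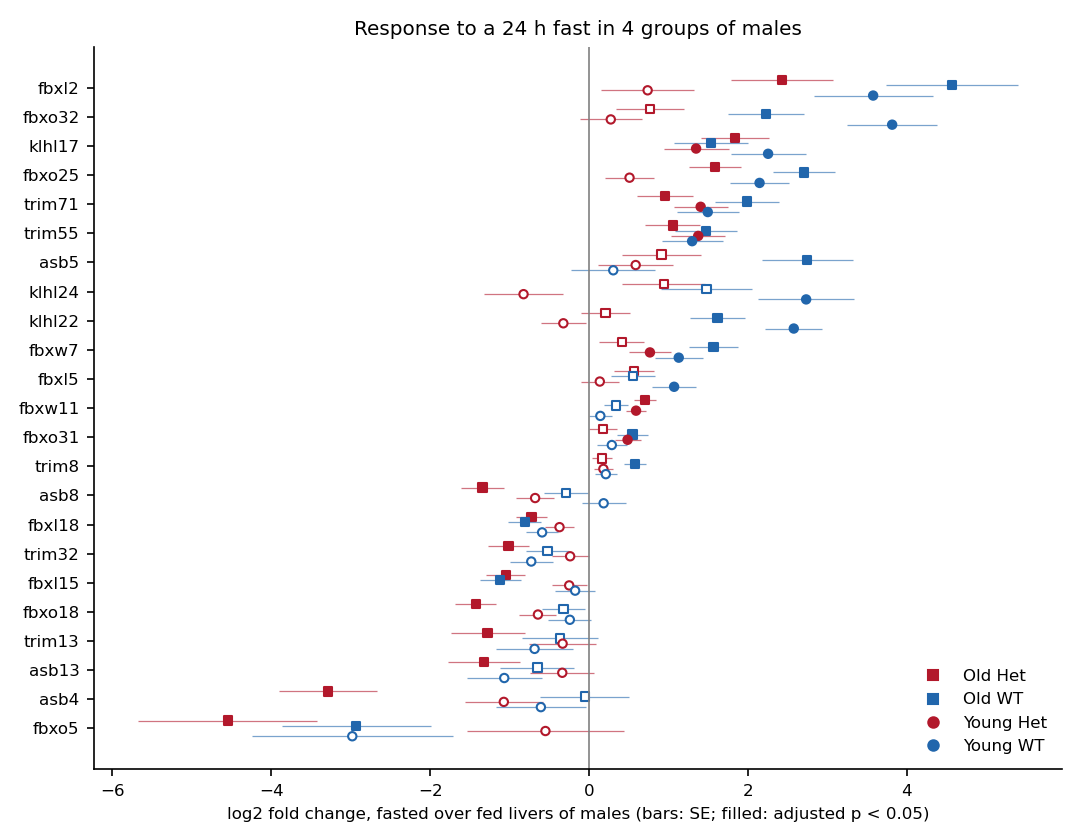
Log2 fold change of fasted over fed livers for selected members in young WT, young Het, old WT and old Het males, with standard errors; filled points passed an adjusted p of 0.05. For fbxo32 and klhl22 the WT points lie well to the right of the Het points, at 3.81 in young WT males and 2.23 in old WT males for fbxo32.

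The difference between the genotypes was tested directly. The fasting response in Het males minus that in WT males was called for 8 of 87 members, 9.2% against 4.4% of all genes, and all 8 were lower in Het males (2.3% of all genes were lower and 2.1% higher). The median over the members was -0.14, against -0.04 over all genes. They included klhl22 (-2.15 ± 0.32, edgeR adjusted p = 0.000481), fbxo32 (-2.50 ± 0.47, adjusted p = 0.00293), fbxo25 (-1.38 ± 0.35, adjusted p = 0.0182), klhl24 (-2.05 ± 0.55, adjusted p = 0.0258), fbxl2 (-2.49 ± 0.69, adjusted p = 0.0313), asb8 (-0.96 ± 0.27, adjusted p = 0.0326) and asb4 (-1.85 ± 0.55, adjusted p = 0.0484). klhl22 and fbxo32 passed in all 27 fits that leave out 1 liver. fbxo25 was lost without fed old WT male 5 (adjusted p = 0.0518) or fasted old WT male 19 (adjusted p = 0.0528), klhl24 in 6 fits, asb8 and fbxl2 in 9 each and asb4 in 20. The count was 3 without fasted old WT male 19, 4 without fed old WT male 5 or fasted old Het male 26 or 27, and 5 without fed young WT male 45 or 46.

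Fish by fish values of klhl22, klhl24 and fbxo32 are given for young males alone, whereas the test weighted both ages equally. In the fasting comparisons klhl24 was called in young WT males but not in old WT males. klhl22 was 5.22, 5.22, 7.16 and 8.49 CPM in fasted young Het livers, against 6.00, 10.9, 7.22 and 8.53 CPM in fed ones. In young WT males it was 7.72, 8.37 and 8.80 CPM in fasted livers, against 1.32, 1.91 and 0.940 CPM in fed ones. Fed young WT livers thus stood apart, while fed and fasted young Het livers and fasted young WT livers shared a range. klhl24 was 118, 150, 182 and 321 CPM in fasted young Het livers, against 236, 381, 409 and 342 CPM in fed ones, and 246, 274 and 282 CPM in fasted young WT livers, against 22.5, 25.5 and 72.7 CPM in fed ones. fbxo32 was 2.55, 1.80, 1.43 and 1.94 CPM in fasted young Het livers, against 0.741, 1.38, 2.24 and 2.03 CPM in fed ones, and 1.30, 1.16 and 1.59 CPM in fasted young WT livers, against 0, 0.102 and 0.168 CPM in fed ones, which were 0, 3 and 5 reads. In both genes the fed young WT livers were the low ones and the other young groups overlapped.

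asb4 showed another arrangement. It was 0.414, 0.593 and 0.398 CPM in fasted old Het livers, against 6.07, 3.38, 4.10 and 4.89 CPM in fed ones. In old WT males it was 4.14, 2.52 and 1.71 CPM in fasted livers, against 3.85, 2.07 and 2.83 CPM in fed ones. Here the fasted old Het livers stood apart and the old WT groups overlapped.

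Compared directly in fed males, Het and WT livers differed in several of these genes. The comparisons share their fed livers with the fasting comparisons, so they are not independent of them. In young fed males 11 of 87 members differed, 12.6% against 5.8% of all genes, 8 higher and 3 lower in Het livers (2.78% and 3.02% of all genes). The median was 0.13 over the members and 0.02 over all genes. fbxo32 (4.05 ± 0.56, edgeR adjusted p = 4.73e-05), klhl24 (3.09 ± 0.60, adjusted p = 0.00138), klhl22 (2.55 ± 0.35, adjusted p = 4.73e-05) and fbxo25 (1.56 ± 0.35, adjusted p = 0.00592) led, and each was called in every fit that leaves out 1 of the 7 livers. The fold of fbxo32 rests on a WT group with 0 to 5 reads per liver. fbxw11, which encodes the beta-TrCP paralogue of the F-box family, ran from 15.6 to 19.6 CPM in Het livers, against 28.0 to 29.7 CPM in WT livers (-0.72 ± 0.14, adjusted p = 0.00121). asb7 ran from 6.11 to 6.34 CPM in Het livers, against 3.36 to 3.89 CPM in WT livers (0.74 ± 0.21). fbxo10, an F-box gene for BCL2, and fbxo45 were lower in Het livers (-0.79 ± 0.21 and -1.13 ± 0.32). With 1 liver left out, fbxw11 kept its call, fbxo10 missed the threshold in 3 of 7 fits, fbxo45 in 5 and asb7 in all 7. The count was 7 without WT male 45, WT male 46 or Het male 54.

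In old fed males 10 members differed, 11.5% against 7.33% of all genes, and all 10 were higher in Het livers (3.45% of all genes were higher and 3.88% lower). fbxo32 and klhl24, which were among the leading genes in young fed males, were not called. The median was 0.20 over the members and -0.00 over all genes. fbxl2 was 3.56, 4.11, 3.09 and 2.24 CPM in Het livers, against 0.560, 0.0765 and 0.345 CPM in WT livers (3.27 ± 0.79, edgeR adjusted p = 0.0111). fbxo25 was 5.95, 4.07, 5.04 and 2.40 CPM in Het livers, against 1.39, 0.485 and 1.24 CPM in WT livers (2.07 ± 0.37, adjusted p = 0.00145), and klhl22 was 7.27, 7.42, 7.25 and 5.61 CPM in Het livers, against 3.76, 1.02 and 1.93 CPM in WT livers (1.61 ± 0.33, adjusted p = 0.00421). The groups did not overlap for any of the 3, nor for 27 of the 87 members in all and 21.8% of all genes. Without WT male 5 the count of calls was 1, with fbxo25 still called, fbxl2 at 2.80 (adjusted p = 0.118) and klhl22 at 1.26 (adjusted p = 0.0776). The count was 4 without Het male 12, 5 without Het male 11, 6 without WT male 6 and 16 without Het male 14. WT liver 5 also held the most fast fibre marker RNA of all livers, 355 CPM, against 25.0 to 128 CPM in every other liver, and 8 of 12 of these markers were lower in old fed Het than in old fed WT livers. By mean over all livers, ryr1b was the largest part of this sum, at 46.0 CPM (18.4 to 120 CPM). Its highest value in any liver was thus far under the 355 CPM of WT liver 5, where other fast fibre genes made up the rest. The next highest mean was that of acta1, at 5.88 CPM. The highest levels in any liver were 100 CPM for acta1, 72.0 CPM for mylpfa and 39.6 CPM for mylz3. The part of this marker RNA in the member results was not tested. In the fasting comparison of old WT livers, the muscle gene klhl31 was 0, 0.0779 and 0.191 CPM in fasted livers, against 0, 1.12 and 1.71 CPM in fed livers. Its relation to the marker sum was not tested. Its call there was lost in 4 of 6 fits with 1 liver left out (adjusted p up to 0.165).

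**Figure D5:**
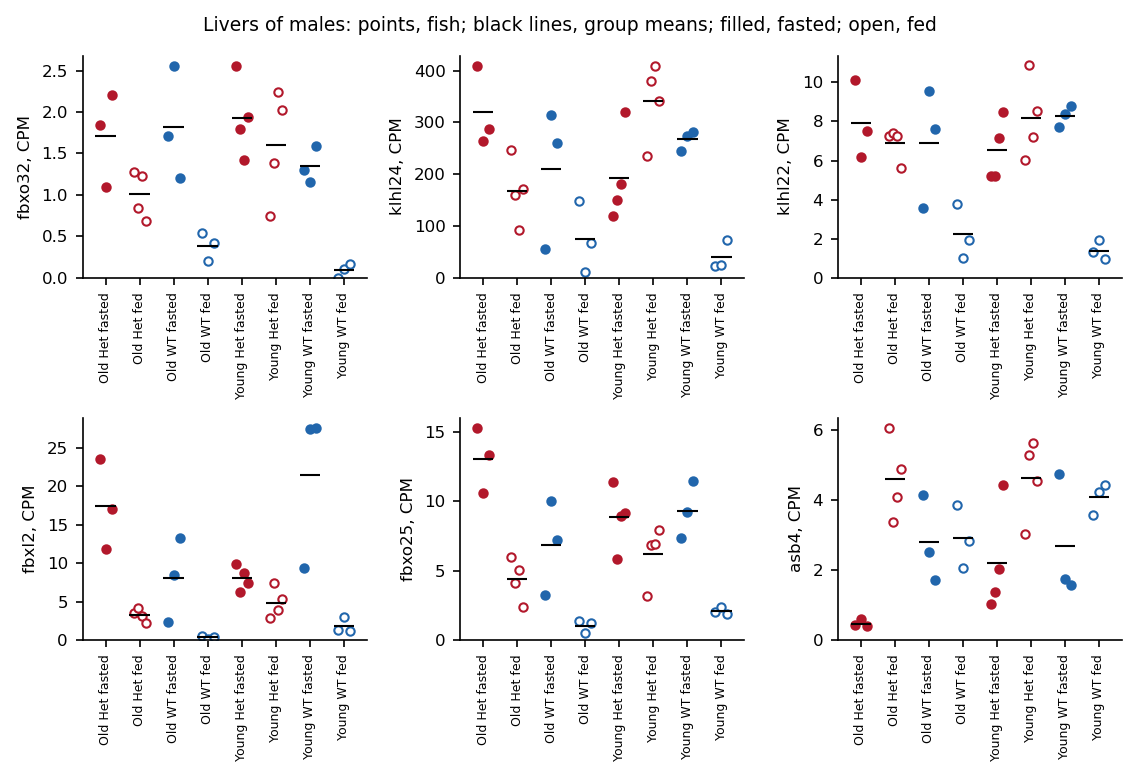
Liver CPM of fbxo32, klhl24, klhl22, fbxl2, fbxo25 and asb4 in 8 groups of males by age, genotype and feeding. Points are fish, filled for fasted and open for fed, and black lines are group means; fed WT livers have the lowest group mean of their age for fbxo32, klhl22, fbxl2 and fbxo25, and fasted old Het livers are lowest for asb4, at 0.398 to 0.593 CPM.

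In fasted fish the genotypes differed in few members. In young fasted fish none of 87 members passed in edgeR or in DESeq2, with 7 at an unadjusted p under 0.05, against 0.00575% of all genes called. In old fasted males asb4 passed as lower (1.15% of members against 0.758% of all genes, 0.402% lower), at -2.57 ± 0.62 (edgeR adjusted p = 0.0426), and it was lost in 5 of 6 fits that leave out 1 liver. In old fasted females 2 members passed, 2.3% against 2.03% of all genes (1.03% higher and 0.994% lower). fbxo48 was 0.667, 1.48, 1.17 and 1.45 CPM in Het livers, against 5.87, 3.98 and 3.94 CPM in WT livers (-1.96 ± 0.39, adjusted p = 0.0109), and trim32 was 5.96, 7.14, 5.57 and 5.57 CPM in Het livers, against 2.35, 4.199 and 2.29 CPM in WT livers (1.04 ± 0.26, adjusted p = 0.0349). Neither gene overlapped between genotypes, and the same was true of 16 of the 87 members in all and 11.9% of all genes. fbxo48 was lost without WT female 15 (adjusted p = 0.0726) or 17 (adjusted p = 0.0564), and trim32 in 5 of 7 such fits. The count was 0 without WT female 15 or 17, 1 without Het female 21 or 22 and 7 without WT female 16.

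Between ages, the fasting response of males differed for 1 member, 1.15% against 1.01% of all genes (0.241% larger in old males). trim33 was 104, 93.8 and 92.3 CPM in fasted old Het livers, against 45.9, 36.8, 61.3 and 49.0 CPM in fed ones, and 62.6, 79.8 and 77.6 CPM in fasted old WT livers, against 25.2, 28.2 and 30.8 CPM in fed ones. In young fish it was 66.8, 49.7, 50.6 and 39.0 CPM in fasted Het livers, against 41.4, 56.7, 53.5 and 45.7 CPM in fed ones, and 59.1, 49.1 and 41.1 CPM in fasted WT livers, against 29.2, 34.2 and 29.8 CPM in fed ones. Old fasted livers lay above all other livers of males except 1 young fasted Het liver. The response was larger in old males by 0.82 ± 0.21 (edgeR adjusted p = 0.0475), a call lost in 23 of 27 fits that leave out 1 liver.

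Companion genes were counted in the same comparisons. Of 22 tested cullin, RING and E2 genes, 6 were higher and 6 lower in fasted livers of males, shares near the 24% higher and 23.6% lower of all genes: cul1 rose by 0.37 and cul3b by 0.29 on the log2 scale, while cul5, the cullin of ASB proteins, fell by 0.86, rbx1, the RING subunit, by 0.72 and skp1, the F-box partner, by 0.43. Of 8 subunits of the COP9 signalosome, which removes NEDD8 from cullins, 1 was higher and 5 were lower, beside the same background. Of 9 regulators tested in liver, 7 were higher, with a median of 1.64, led by sgk1 (4.01) and klf9 (3.11), and with foxo3a (2.01), foxo1 (1.75) and foxo4 (1.64). In the test of Het minus WT, 4 of these 9 were lower in Het males (2.3% of all genes were), with a median of -1.895: klf9 (-4.57), foxo1 (-2.52), foxo4 (-1.97) and klf15, which is that median.

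The members related to fbxo32 in muscle were set beside the fasting response of the liver, an arrangement noticed in these data and given as a description. The muscle values come from fasted fish alone, and some of those fish also gave the fasted livers. Of 20 members with a positive relation inside muscle groups and tested in liver, 16 (80%) were higher and 1 lower in fasted livers of males. Of all 1934 genes with a positive relation in muscle, 59% were higher and 9.36% lower in fasted livers. Those 16 members were 48.5% of the 33 members that were higher in fasted livers and tested in both tissues. They included fbxl2, fbxo25, trim55, klhl24, klhl22, fbxo48, fbxl4 and fbxo3. Of 8 members with a negative relation in muscle, 1 (trim33) was higher and 1 (asb8) lower in fasted livers, against 9.74% higher and 41.5% lower of all genes with a negative relation. Levels in the livers of the same fish were set beside muscle fbxo32 too: 8 of 87 members (9.2%) passed over all fish, against 16% of all genes, and inside groups 5 were positive (7.91% of all genes) and 5 negative (7.82%).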

How the data were processed

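Per the labels' protocols and the submitters' processing notes, reads were checked with FastQC 0.11.8, trimmed with Trim Galore 0.6.4 and cutadapt 3.4 and aligned with STAR 2.7.6a. How reads were counted (tool and strand) and on which build and annotation is not given in the sources used here, so paralogous and overlapping genes may share reads. The authors deposited raw counts per gene for 41 livers and 27 muscles, and all values here start from those counts. The members and gene lists were chosen with earlier results of these data known.

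Each tissue was fitted on its own with 1 mean per group (edgeR 4.0.16 in R 4.3.3, limma 3.58.1): TMM size factors, genes kept by filterByExpr with a minimum count of 10 and total of 15, quasi-likelihood tests of contrasts, Benjamini-Hochberg adjustment over all genes tested and a threshold of 0.05. Muscle and liver were compared in a joint fit of the 27 fish that gave both, with 1 mean per group and without the pairing by fish. That fit had size factors of its own, so CPM in that comparison differ in scale from CPM elsewhere. SE is the absolute log2 fold change over the square root of the test's F statistic. Of the 103 members, 94 passed the filter in muscle, 87 in liver and 95 in the joint fit. Members under the filter in muscle were asb9, fbxo15, fbxo16, fbxo2, fbxo5, klhl14, trim46, trim54 and trim67. In liver they were asb10, asb15, asb9, fbxl16, fbxl22, fbxo15, fbxo16, fbxo2, fbxo41, klhl14, klhl23, klhl34, klhl40, klhl41, trim54 and trim67.

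Named genes are, for each comparison, up to 8 called members with the largest rise and up to 8 with the largest fall at an average log2 CPM of at least 0, and members of the role lists. Others named, such as klhl6, fbxo3 and the genes related to fbxo32, were chosen after their values were seen. The values of 1 member are not reported here, though it enters the counts over members. Relations to fbxo32 used log2(CPM + 0.1). Gene names are those of the tables; 5241 of 14280 LOC identifiers had a RefSeq symbol. Levels are not compared between genes, since no gene lengths were used.

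Fish are the replicates. The series' design text says that livers and muscles came from the same fish, and the same fish number pairs them. Deviations of paired libraries from their group means had a median correlation of 0.134 (lowest -0.013, highest 0.565). No value for unmatched libraries is given, so these correlations do not test the pairing. Replicates differed by more than sampling noise in all 84 pairs inside groups (lowest chi-square per degree of freedom 16.2). Alternatives were RLE size factors, DESeq2 1.42.0, no filter, a fit of the compared groups alone, the omission of single libraries, and the fish as a block. The tests were checked on simulated data.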

Additional observations from a re-analysis of the deposited data

Results flagged for a closer look

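A sample is listed here where its level stood apart from the other 3 fish of its group by Dixon's ratio at the 95% level, in groups of 4. This happened in 14 of 149 combinations of gene and group, or 9.4%, where chance alone gives about 1 in 20. In muscle, klhl31 was 1314 CPM in young Het female 34, under the 1445 to 1456 CPM of the other 3 fish. fbxo9 was 72.5 CPM in old Het female 24, against 88.3 to 90.8 CPM in the others, and trim37 was 5.43 CPM in that same fish, against 4.11 to 4.27 CPM in the others. trim37 was also 3.68 CPM in young Het male 39, against 2.32 to 2.53 CPM in the others.

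In fed old Het livers, klhl22 was 5.61 CPM and trim13 2.43 CPM in male 14, against 7.25 to 7.42 CPM and 3.84 to 4.11 CPM in the others. fbxo48 was 2.12 CPM in male 11, against 1.49 to 1.58 CPM in the others, and asb5 was 2.81 CPM in male 12, against 1.48 to 1.69 CPM in the others. In fed young Het livers, trim65 was 2.45 CPM in male 54, against 3.26 to 3.31 CPM in the others, and trim23 was 7.63 CPM in male 52, against 8.73 to 8.88 CPM in the others.

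In fasted young Het livers, fbxl4 was 10.3 CPM and fbxo5 0.155 CPM in male 41, against 14.0 to 14.4 CPM and 0.0567 to 0.0653 CPM in the others. The fbxo5 levels are a handful of reads per liver, so that flag rests on few reads. fbxo18 was 3.03 CPM in male 40, against 2.64 to 2.67 CPM in the others, and fbxo7 was 5.16 CPM in male 38, against 5.79 to 5.85 CPM in the others.

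Effects that differed between groups by a test of the difference itself were all fasting responses of the liver. The response in old males minus that in young males was 0.82 for trim33 on the log2 scale. The response in Het males minus that in WT males was -2.15 for klhl22, -2.50 for fbxo32, -1.38 for fbxo25, -2.05 for klhl24, -2.49 for fbxl2, -0.96 for asb8 and -1.85 for asb4.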

How the results depend on the processing

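No named value reversed under any alternative. The balance of calls for muscle age in males, 4 higher and 3 lower, was 0 and 2 without old WT male 18, 1 and 2 without young WT male 31, and 11 and 12 without old WT male 20. With TMM replaced by RLE size factors every one of 175 named values kept its status, called or not called. With DESeq2 174 did, and with no filter on low counts 154. When only the groups compared entered the fit, 104 kept their status and 38 lost their call. Some of the 175 had no call to lose, such as asb8 and klhl41 in the test of male minus female age effects. Leaving out each library in turn, 109 of the 175 kept their status, called or not called, in every fit. Counts that moved by more than 1.5 times were as follows. With only the groups compared, muscle age in males gave 1 call, fasting in old WT males 4, genotype in young fed males 17, genotype in old fed males 4, and genotype in old fasted males and in old fasted females 0 each. Under DESeq2, muscle sex gave 6 calls, muscle genotype 2, the old minus young response 3, the Het minus WT response 13, and genotype in old fasted males and in old fasted females 6 each. Without the filter, muscle sex gave 1, the old minus young response 0, and genotype in old fasted males 0 and in old fasted females 1. The cause of these changes was not tested.

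With 1 library left out, counts ranged from 2 to 23 for muscle age in males, 0 to 1 in females and 0 to 0 for their difference, 1 to 6 for muscle sex and 0 to 1 for muscle genotype. For fasting they ranged from 45 to 53 over all males, 9 to 19 in young WT, 6 to 16 in young Het, 20 to 32 in old WT and 20 to 26 in old Het males, 0 to 2 for old minus young and 3 to 10 for Het minus WT. For liver genotype they ranged from 7 to 11 in young fed males, 1 to 16 in old fed males, 0 to 1 in old fasted males, 0 to 7 in old fasted females and 0 to 0 in young fasted fish. For tissue they ranged from 81 to 86. With the fish as a replicate block, 81 members were called between tissues, and fbxl2 was the call lost (-0.43). Depth limits what can be said of members with few reads, such as fbxo32 in fed WT livers and fbxo5 in fasted livers. Their fold changes and tests given above rest on those few reads, and the size of these folds is uncertain.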
